A study of Mus musculus with 2 samples.

Results

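The heat shock proteins and co-chaperones examined here were 10 mouse genes: Hsph1, Bag3, Hspa1a, Hspa1b, Hspa8, Hsp90aa1, Dnajb1, Hspb1, Hspd1 and Hspe1. They were matched by symbol, and the list was drawn up with earlier results of these data known. Under those symbols the array carried 14 probes of 9 genes, among 39429 probes of 31896 gene names in all. Hspa1b had no probe under its own symbol. The cells were ZHBTc4 mouse embryonic stem (ES) cells, in which both endogenous Oct4 alleles are disrupted and a doxycycline-repressible Oct4 transgene keeps the cells undifferentiated. All 3 clones were monoclonal, stably transfected with a pCAG-IP plasmid and treated with doxycycline. They were grown without feeders with 15% serum and 1000 IU/ml LIF. Of these, 1 clone carried EGFP, 1 carried Oct4-EGFP and 1, clone number 26, carried Nr5a2-EGFP. The EGFP array set the EGFP clone (Cy3) against the Nr5a2-EGFP clone (Cy5), and the Oct4 array set the Oct4-EGFP clone (Cy3) against the Nr5a2-EGFP clone (Cy5) again. The time in doxycycline and the passage of the clones are not given in the sources used here.

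Each pair of clones was read on 1 array, with no replicate culture and no dye swap, so no test or p-value between clones was possible and a clone cannot be told apart from the plasmid it carries. A gene is called higher or lower here at a log2 ratio of at least 1 in size, which is 2-fold. The Nr5a2-EGFP clone alone was measured repeatedly, once per array and always in Cy5. Over 24631 genes its log2 readings differed with an SD of 0.27, and the readings of 1.3% of genes were at least 2-fold apart. This spread is between arrays, and the labels do not say that the RNA was extracted separately. Both arrays share that clone, so their ratios are not independent of each other. The probes of the genes on the plasmids gave the labels no clear support. Pou5f1, which encodes Oct4, read 7.61 (log2 level) in the library labelled EGFP and 7.59 in the one labelled Oct4-EGFP, against 7.49 and 6.69 in those labelled Nr5a2-EGFP, where the last was not well above background. The log2 ratio of Nr5a2-EGFP over Oct4-EGFP was -0.90 for this dim probe, which starts at base 903 of NM_013633. That of Oct4-EGFP over EGFP, taken through the shared Nr5a2-EGFP clone, was 0.78, the direction of the label, though the Cy3 levels were nearly equal. At the brighter Nr5a2 probe, base 2918 of NM_030676, the levels were 11.30, 11.58, 10.38 and 10.44 in that order, so the libraries labelled Nr5a2-EGFP read lowest, and at base 2109 they did too. Whether these Nr5a2 probes lie in the transgene was not tested, and if they do not they check nothing. Throughout, a clone's name stands for the library so labelled, and every direction rests on those labels.

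The ES label was checked on 12 marker genes, of which 10 (EGFP clone), 12 (Oct4-EGFP clone), 10 and 11 (readings of the Nr5a2-EGFP clone) were well above background. A ratio "over" a clone is that of Nr5a2-EGFP to it unless another clone is named. Over Oct4-EGFP, 9 of 12 ES markers were at least 2-fold lower, against 7.12% of all genes. There 9 of 11 measured trophoblast markers were higher, against 4.54%. Over EGFP, 2 of 10 measured ES markers (Esrrb and Fgf4) were lower, against 5.08%. Of 11 trophoblast markers 1 (Gata3) was higher there, against 3.33%, and 1 (Hand1) lower. For Oct4-EGFP over EGFP, 7 of 12 ES markers were higher, against 6.48%, and 9 of 11 trophoblast markers lower, against 5.85%. Some ES markers were poorly repeated. The Nr5a2-EGFP readings, Oct4 array minus EGFP array, differed by 1.45 for Esrrb and 2.93 for Fgf4, which was saturated in some channel. They differed by 1.42 for Nr0b1 and -1.14 for Zfp42, so ratios of these genes depend on the array.

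Heat shock proteins are chaperones that bind unfolded proteins and help them fold. In the cytosol HSP70 proteins hold and release clients in a cycle driven by ATP. J-domain proteins start that cycle, and exchange factors such as the HSP110 protein and BAG proteins complete it. HSP90 finishes the folding of many kinases and receptors, small heat shock proteins hold unfolded clients, and in mitochondria the HSP60 and HSP10 chaperonin pair folds imported proteins. Heat shock factor 1 (HSF1) raises many of these genes under stress by binding repeats of GAA and TTC units in their promoters, and ES cells are known for a high basal level of several chaperones.

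The probes are shown first, because what each one detects sets what the ratios can say. Probes were 60 bases long, and positions are on mm9, per the file headers. They are printed 5′ to 3′ in lower case, with no base singled out. The Hsph1 probes start at base 2728 (chr5:150420110-150420169, minus strand) and base 3094 (chr5:150419744-150419803, minus strand, first 30 bases printed) of transcript NM_013559:
Hsph1, base 2728: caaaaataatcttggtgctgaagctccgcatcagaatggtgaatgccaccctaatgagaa
Hsph1, base 3094: atgaactacactgcttggtcacacgctggg
The Bag3 probe (NM_013863, base 2380, chr7:135690281-135690340) is given by its first 30 bases:
Bag3, base 2380: tgaggggtaggaagagagttacaggaatag
The Hspa1a probe (NM_010479, base 1925, chr17:35107117-35107176, minus strand) also lists NM_010478, the transcript of Hspa1b, among its targets in the file, so its values are those of the pair Hspa1a and Hspa1b and cannot be split between them:
Hspa1a and Hspa1b, base 1925: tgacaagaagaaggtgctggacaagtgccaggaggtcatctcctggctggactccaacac
The 3 Hspa8 probes start within 1 transcript, NM_031165, at bases 730 (chr9:40611142-40611201), 1812 (chr9:40612755-40613050, a genomic span of 296 bases for a probe of 60) and 2044 (chr9:40613223-40613282, first 30 bases printed). The probes at bases 1812 and 2044 list further RefSeq accessions in the file and the probe at base 730 lists none:
Hspa8, base 730: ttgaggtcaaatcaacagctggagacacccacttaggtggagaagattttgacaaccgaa
Hspa8, base 1812: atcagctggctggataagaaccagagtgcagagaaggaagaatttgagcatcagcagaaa
Hspa8, base 2044: ttgttccacagggacccaaaacaagtaaca

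All 14 probes were well above background in all 4 channels and none was flagged as an outlier. Each was printed as 1 spot per array. The scanner software's own error of the log2 ratio, which covers technical error of a spot only, ran from 0.20 to 0.24 over these probes. For 12 of 14 probes the Nr5a2-EGFP readings were less than the SD of 0.27 apart, and the exceptions were both of Hspa8. The Oct4-EGFP clone lay below both readings by more than that SD at 8 of 14 probes, and the EGFP clone at 5. Above both readings by that much lay the Oct4-EGFP clone at 1 probe, the saturated Hsp90aa1, and the EGFP clone at 0. With the SD of 0.30 of 8210 unsaturated genes at levels from 11 to 15 the counts below both were 8 and 4, without the saturated Hspa8 probe in the latter. Hsph1 and Hspa8 enter these counts with several probes, and no share over all genes stands beside them.

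**Figure D1:**
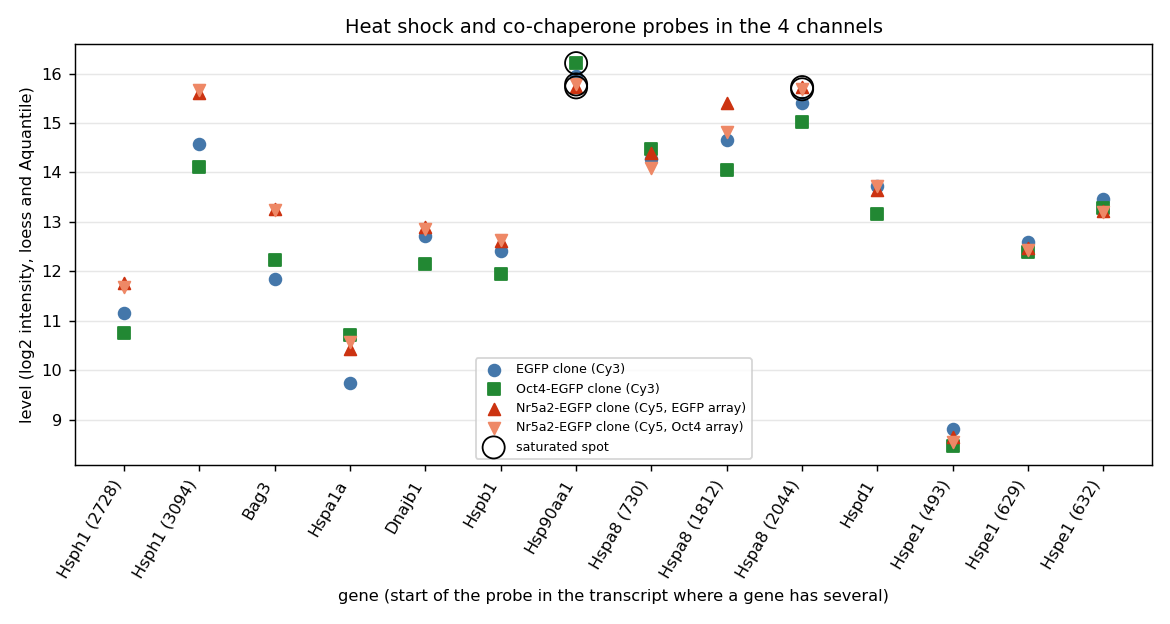
Level of each probe (log2 intensity after loess within arrays and Aquantile between arrays) in the EGFP clone, the Oct4-EGFP clone and both readings of the Nr5a2-EGFP clone, with rings around saturated spots. Both Hsph1 probes and Bag3 sit higher in both readings of the Nr5a2-EGFP clone than in the other clones, while for Hspa1a the EGFP clone stands alone at 9.74.

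Bag3 and Hsph1 were the members past the 2-fold size, with more RNA in the library labelled Nr5a2-EGFP on both arrays. Bag3 is a co-chaperone that carries HSP70 clients to selective autophagy, and Hsph1 encodes HSP110, an exchange factor of HSP70. Over EGFP, 2 of 9 members were past 2-fold upward, against a background of 3.33% of all genes, and 0 downward, against 5.08%, so 2 of 9 in either direction stand beside 8.41%. Median centring in place of loess turns that background from 39.6% to 63.2% of calls being higher. Over Oct4-EGFP the counts were again 2 and 0 of 9, against 4.54% upward, 7.12% downward and 11.7% in either direction. Because the members were chosen with earlier results of these data known, these counts are a description and no test. The median log2 ratio of the 9 members was 0.20 over EGFP, beside 0.03 for all genes, and 0.66 over Oct4-EGFP, beside 0.01 for all genes. These 9 include saturated spots of Hsp90aa1 and Hspa8, and 0.66 is the value of the Hspa8 spot itself. With saturated spots left out, 8 members remained, Hspa8 stood at an unsaturated probe, and the medians were 0.45 and 0.69.

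Among 6835 genes of like brightness (levels from 12 to 16) the medians were 0.03 and 0.02. A list of 15 reference genes had a median of 0.09 over EGFP and 0.39 over Oct4-EGFP, with 14 of 15 above 0 in the latter. Actb, at 1.44, and B2m were past 2-fold on that list, and the Nr5a2-EGFP readings of Actb lay 0.82 apart. The part of such a shift in the members' median over Oct4-EGFP was not tested.

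For Bag3 the EGFP clone read 11.85 (log2 level), the Oct4-EGFP clone 12.24, and the Nr5a2-EGFP clone 13.26 on the EGFP array and 13.24 on the Oct4 array. The Nr5a2-EGFP readings were nearly equal and both lay above the other clones. The log2 ratio was 1.41 over EGFP (2.65-fold, software error 0.24) and 1.01 over Oct4-EGFP (2.01-fold, software error 0.22), the latter only just past the 2-fold size. The ratio over EGFP was above that of 99.1% of genes.

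At the brighter Hsph1 probe, base 3094, the EGFP clone read 14.57, the Oct4-EGFP clone 14.12 and the Nr5a2-EGFP clone 15.61 and 15.66. Both readings of the last lay well above the other clones. The log2 ratio was 1.04 over EGFP (2.06-fold) and 1.54 over Oct4-EGFP (2.92-fold), with software errors of 0.22 and 0.24. This spot was not flagged as saturated, but 28 of 63 pixels on the EGFP array and 26 of 62 on the Oct4 array were saturated in Cy5 and none in Cy3. The software's processed signals gave 0.83 over EGFP for it, short of 2-fold, and 1.29 over Oct4-EGFP.

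At the dimmer Hsph1 probe, base 2728, no pixel was saturated. Its levels were 11.15 (EGFP), 10.75 (Oct4-EGFP), and 11.76 and 11.68 (Nr5a2-EGFP readings), in the same order of clones as at base 3094. Its log2 ratio was 0.61 over EGFP and 0.92 over Oct4-EGFP, both short of 2-fold, with software errors of 0.21 and 0.22. The direction was thus shared by the probes and the 2-fold size was not: with this probe in place of the brighter one, Bag3 alone counted as higher on either array. The probes of a gene often disagree on these arrays. Over 3463 genes with several probes well above background and unsaturated, the range between probes had a median of 0.41 on the EGFP array and 0.43 on the Oct4 array, and reached 1 in 14.9% and 16.5% of genes.

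**Figure D2:**
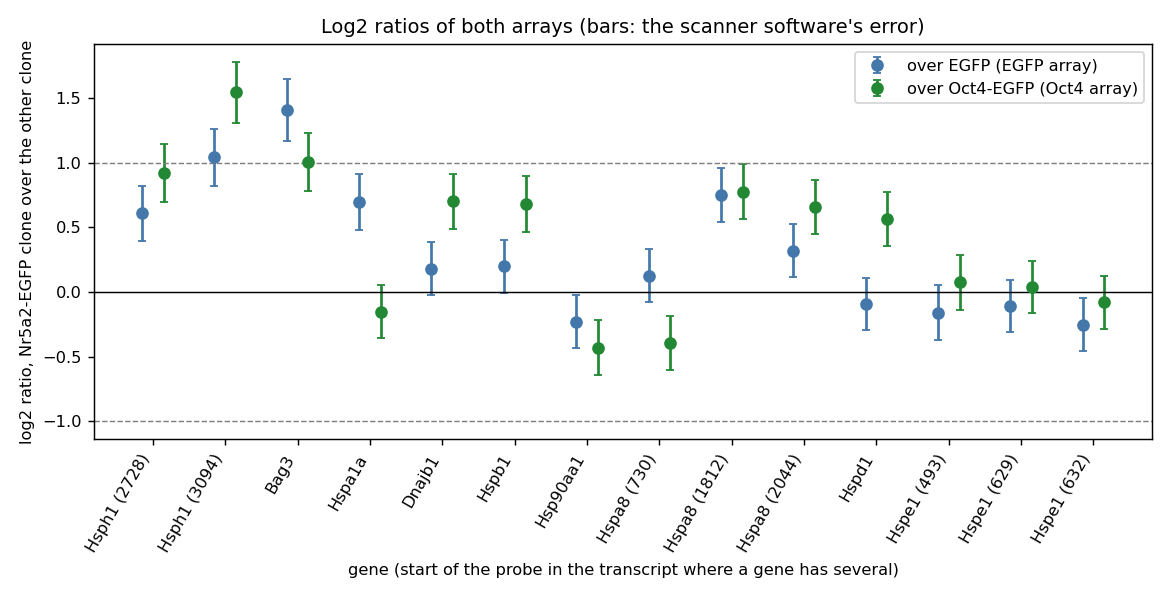
Log2 ratio of the Nr5a2-EGFP clone over the EGFP clone (blue) and over the Oct4-EGFP clone (green) for the 14 probes, with the software's error as bars, which do not cover differences between cultures. Dashed lines mark 2-fold, passed by Bag3 and by the Hsph1 probe at base 3094 on both arrays, with Bag3 at 1.01 on the Oct4 array.

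Dnajb1 and Hspb1, also inducible cytosolic genes, also read lowest in the Oct4-EGFP clone, with smaller ratios. Dnajb1 encodes the main HSP40 J-domain partner of inducible HSP70 (probe of NM_018808, chr8:86135660-86135719). Its levels were 12.71 (EGFP), 12.15 (Oct4-EGFP), and 12.89 and 12.85 (Nr5a2-EGFP readings), so the EGFP clone lay close to the Nr5a2-EGFP clone and the Oct4-EGFP clone below both. The log2 ratio was 0.18 over EGFP and 0.70 over Oct4-EGFP.

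Hspb1, a small heat shock protein that holds unfolded clients until they are refolded (probe of NM_013560, chr5:136365366-136365425), had levels of 12.41, 11.96, 12.61 and 12.64 in the same order of channels. Its log2 ratio was 0.20 over EGFP and 0.68 over Oct4-EGFP. For both genes the gap between the EGFP clone and the nearer Nr5a2-EGFP reading, 0.14 for Dnajb1 and 0.20 for Hspb1, was within the SD of the readings. The gap of the Oct4-EGFP clone was not, at 0.70 for Dnajb1 and 0.65 for Hspb1.

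Hspa1a, measured together with Hspa1b, went in another order. These genes encode the stress-inducible HSP70. The EGFP clone read 9.74, the Oct4-EGFP clone 10.72 and the Nr5a2-EGFP clone 10.43 and 10.57. The EGFP clone was low and the Oct4-EGFP clone slightly above both Nr5a2-EGFP readings, by 0.15, which is within the SD of the readings. The log2 ratio was 0.69 over EGFP (1.62-fold) and -0.15 over Oct4-EGFP. Hspa1a was the inducible member with an unsaturated probe whose ratio over Oct4-EGFP was below 0, and over the alternatives run it stayed between -0.29 and -0.09, while the ratios of Hsph1, Bag3, Dnajb1 and Hspb1 stayed above 0.

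Hsp90aa1, the inducible form of cytosolic HSP90, gave no usable ratio (probe of NM_010480, chr12:111929248-111929307, minus strand). Its spot was saturated in Cy5 on both arrays, in 64 of 64 and 56 of 56 pixels, and in Cy3 on the Oct4 array, in 56 of 56 pixels. The Cy3 spot of the EGFP clone was unsaturated at a log2 level of 15.95, beside 15.72 for the saturated Nr5a2-EGFP spot. No fold is given for it. The files hold no other probe under this symbol.

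Hspa8 encodes HSC70, the constitutive HSP70 of the cytosol, and its 3 probes disagreed. At base 730 the levels were 14.27 (EGFP), 14.47 (Oct4-EGFP), and 14.40 and 14.08 (Nr5a2-EGFP readings), with a log2 ratio of 0.13 over EGFP and of -0.39 over Oct4-EGFP. At base 1812 they were 14.65, 14.05, 15.40 and 14.82, with log2 ratios of 0.75 and 0.77. At base 730 the EGFP clone lay between the Nr5a2-EGFP readings and the Oct4-EGFP clone 0.07 above them. At base 1812 both readings lay above the other clones, the EGFP clone within the SD of the readings.

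At base 2044 the levels were 15.41, 15.02, 15.73 and 15.68, and the Cy5 spot was saturated on both arrays, which on this scale puts the Nr5a2-EGFP library at least 1.25-fold higher than EGFP and at least 1.58-fold higher than Oct4-EGFP. These bounds hold for the loess-normalized levels, since the software's processed signals gave log2 ratios of 0.14 and 0.42 for the same spots. The Nr5a2-EGFP readings of Hspa8, Oct4 array minus EGFP array, differed by -0.32 at base 730 and -0.58 at base 1812, the latter the largest such gap of the 14 probes. Thus, over Oct4-EGFP, the sign of Hspa8 depends on the probe, and the probe with the negative sign is the one that lists no other RefSeq accession in the file.

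The mitochondrial pair stayed near the centre of the array in the comparison with the EGFP clone. Hspd1 encodes HSP60, the barrel of the mitochondrial chaperonin, and Hspe1 encodes HSP10, its lid. Hspd1 (probe of NM_010477, chr1:55134697-55134756, minus strand) had levels of 13.73 (EGFP), 13.17 (Oct4-EGFP), and 13.64 and 13.73 (Nr5a2-EGFP readings). The EGFP clone lay between the Nr5a2-EGFP readings and the Oct4-EGFP clone below both, with a log2 ratio of -0.09 over EGFP and of 0.57 over Oct4-EGFP. Under median centring in place of loess, the ratio over EGFP was 0.17.

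Hspe1 had log2 ratios between -0.25 and 0.08 at all 3 probes on both arrays. At base 632 (chr1:55148026-55148085), the brightest, the levels were 13.47 (EGFP), 13.28 (Oct4-EGFP), and 13.21 and 13.20 (Nr5a2-EGFP readings). The log2 ratio was -0.25 over EGFP and -0.08 over Oct4-EGFP there, -0.11 and 0.04 at base 629, and -0.16 and 0.08 at base 493. No clone differed from the nearer Nr5a2-EGFP reading by more than the SD at any Hspe1 probe. The probes at bases 629 and 632 overlap by 57 bases, in which they differ at 1 base, C12T, counted from 1 at the first shared base, so they share nearly all of their sequence and are not independent. The first 30 shared bases are printed with that base in capitals:
Hspe1, base 629: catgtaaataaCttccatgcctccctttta
Hspe1, base 632: catgtaaataaTttccatgcctccctttta
Although HSP60 and HSP10 work together, the ratio over Oct4-EGFP was 0.57 for Hspd1 and at most 0.08 at the Hspe1 probes. The probes of both genes list further predicted RefSeq transcripts beside the gene's own.

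**Figure D3:**
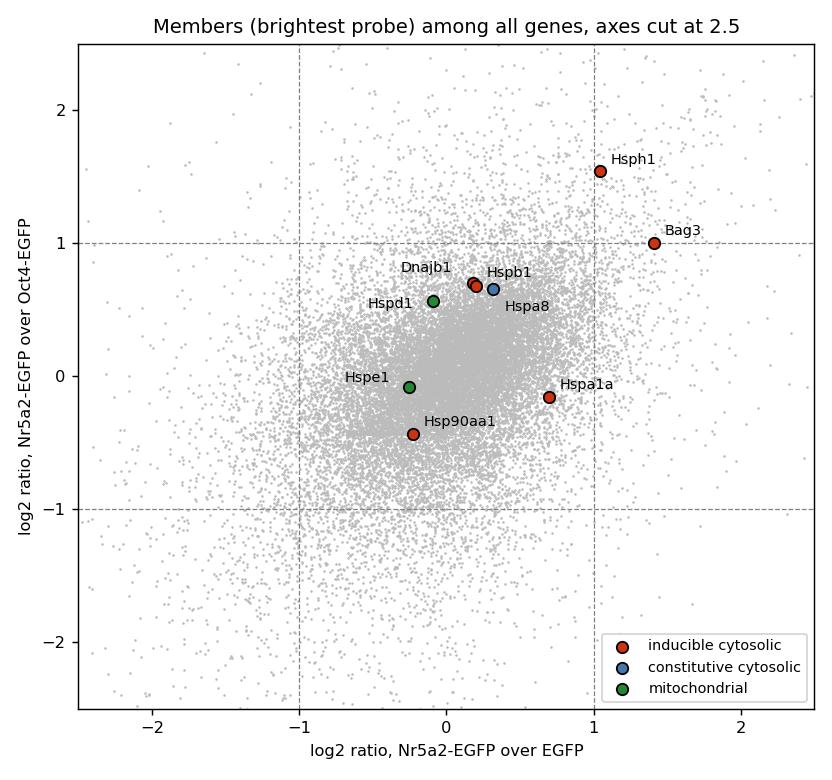
Log2 ratio over Oct4-EGFP against log2 ratio over EGFP for all genes well above background (grey) and for the brightest probe of each of 9 members, coloured by class, with the axes cut at 2.5 and dashed lines at 2-fold. Hsph1 and Bag3 lie past 2-fold or at it on both axes, while Dnajb1, Hspb1, Hspa8 and Hspd1 lie between 0.5 and 1 on the vertical axis. The points of Hspa8 and Hsp90aa1 are saturated spots, and Hspa8 had -0.39 on that axis at its unsaturated probe at base 730.

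By class, the 6 inducible cytosolic members had a median log2 ratio of 0.45 over EGFP and 0.69 over Oct4-EGFP, with 2 at least 2-fold higher in each case. These 6 include the saturated Hsp90aa1 spot, which gave no usable ratio, so both medians depend in part on it. The constitutive member Hspa8 has no settled place beside them: its brightest probe was saturated, and its unsaturated probes gave 0.75 and 0.77 at base 1812 and 0.13 and -0.39 at base 730. The 2 mitochondrial members had medians of -0.17 and 0.24, with 0 past 2-fold. In the indirect comparison of Oct4-EGFP over EGFP, the difference between the arrays' ratios, 0 of 9 members were past 2-fold upward, against 6.48% of all genes, and 0 downward, against 5.85%, or 12.3% in either direction. The members' median there was -0.34, beside 0.02 for all genes, and is the value of the saturated Hspa8 spot. It was -0.33 over 8 members with saturated spots left out and -0.18 with a gene's probes averaged. Hspa8 itself had -0.02 at base 1812 and 0.52 at base 730. The list of 15 reference genes had a median of -0.44 in the same comparison, with 12 of 15 below 0. A list of other HSP70 and HSP110 genes had -0.66, and all other chaperone lists together -0.05. A low value in the Oct4-EGFP clone was thus not particular to the members.

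In that indirect comparison Hspa1a had the highest log2 ratio of the members, 0.85, or 0.98 from the Cy3 levels alone, and 8.97% of all genes lay above it. Bag3 had 0.40 and Hsph1 -0.50. Hspd1 had -0.66, Dnajb1 -0.52 and Hspb1 -0.48, and from the Cy3 levels alone -0.56, -0.56 and -0.45. The EGFP clone read lowest for Hspa1a and Bag3, and the Oct4-EGFP clone read lowest for Hsph1, Dnajb1, Hspb1 and Hspd1.

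The promoters of these genes were searched for heat shock elements. The RefSeq promoter table (GRCm38.p6), of 250 bases before to 50 after a start, matched 8 of 10 members with 11 windows. A 2-unit match was GAANNTTC or TTCNNGAA, each its own reverse complement. A 3-unit match was 3 such units in a row, GAA and TTC by turns with 2 free bases between neighbours, so both strands were covered and each 3-unit match holds overlapping 2-unit matches. Of 32817 promoters in the table, 15.1% held a 2-unit match and 0.603% a 3-unit match. Among the members, 7 of 8 genes held a 2-unit match in at least 1 window and 3 of 8 a 3-unit match. Counted by window, as the background is, these were 8 and 4 of 11. Some of these windows overlap or are nearly alike, so the counts are not of independent sites. These are letters in a window and no binding was measured.

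The member promoters with matches are shown with the matched units in capitals, 5′ to 3′ on the gene's strand. Hspd1 and Hspe1 are divergent neighbours, and the window of the Hspd1 start at 55087932 overlaps that of Hspe1 by 285 bases, with 216 bases between the start sites. They share 1 run of units (chr1:55088038-55088097, plus strand, from -110 to -51 of Hspe1), which holds 3 overlapping 2-unit matches:
Hspe1 and Hspd1: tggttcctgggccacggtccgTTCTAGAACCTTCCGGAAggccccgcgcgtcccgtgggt
Hsph1 has a 2-unit match before its start (chr5:149636337-149636396, minus strand, from -60 to -1) and a 3-unit match after it (chr5:149636287-149636316, from 21 to 50), given as 30 bases:
Hsph1, before the start: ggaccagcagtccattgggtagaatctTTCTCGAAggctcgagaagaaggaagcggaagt
Hsph1, after the start: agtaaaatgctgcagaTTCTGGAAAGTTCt
Hspa1a (chr17:34972227-34972286, minus strand, from -130 to -71) and Hspa1b have the same 60 bases around their single 2-unit match, and their windows of 300 bases differ at 4 positions, an identity of 98.7%:
Hspa1a and Hspa1b: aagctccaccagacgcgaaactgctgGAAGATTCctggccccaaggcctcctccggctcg
Hspb1 (chr5:135887776-135887835, plus strand, from -143 to -84) has 2 matches, of which the first is capitalised, and Bag3 has 1 at the very end of its window (chr7:128523603-128523632, from 21 to 50), again given as 30 bases:
Hspb1: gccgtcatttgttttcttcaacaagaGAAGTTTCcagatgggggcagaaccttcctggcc
Bag3: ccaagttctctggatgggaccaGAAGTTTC
Dnajb1 had no match in either of its windows. Set beside the ratios, a 3-unit match stood in the window of Hsph1, with 1.54 over Oct4-EGFP at its brighter probe, of Hspd1, with 0.57, and of Hspe1, with -0.08. Bag3, with 1.01, held a 2-unit match only, and since it ends where the window ends, a further unit beyond it would not have been seen. The run of Hspd1 and Hspe1 is the same one, and the other Hspd1 window held no match. Whether the matches go with the ratios was not tested.

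**Figure D4:**
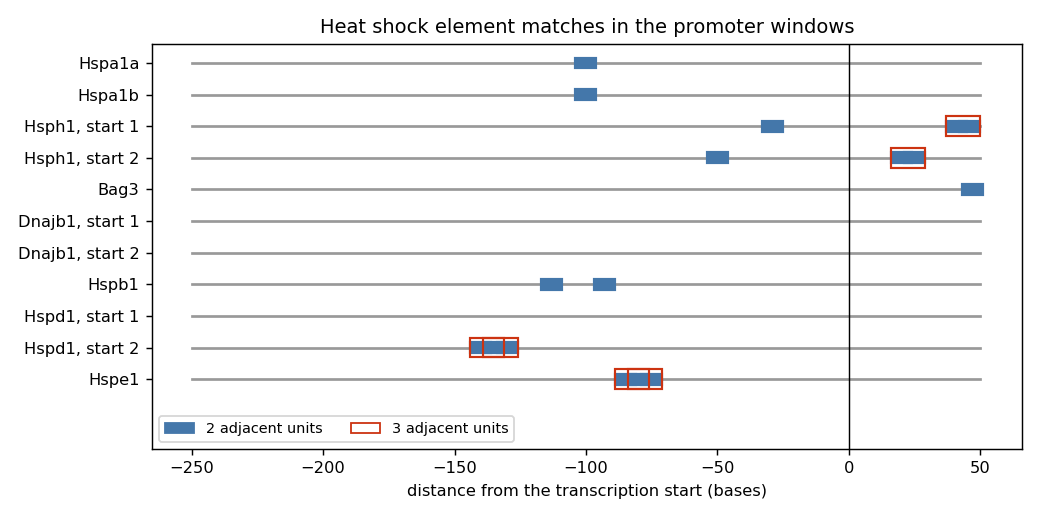
Position of 2-unit (blue) and 3-unit (red outline) matches relative to each transcription start in the 11 promoter windows, from 250 bases before to 50 after the start. Hspe1 and the second Hspd1 start carry the same run of units, 3-unit matches of Hsph1 lie after its starts, and Dnajb1 has none.

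The heat shock factors and, prefoldin aside, the other chaperone lists had medians nearer 0 than the members over Oct4-EGFP. Hsf1, the factor that drives the inducible genes, had a log2 ratio of 0.32 over EGFP and 0.29 over Oct4-EGFP, and Hsf2, a related factor of development, -0.58 and 0.10. The Hsf1 probe was dim, though well above background, with levels of 7.31 (EGFP), 7.29 (Oct4-EGFP), and 7.63 and 7.58 (Nr5a2-EGFP readings). Its small ratios therefore say little about the factor. Of the 6 measured heat shock factor genes and partners, 0 were past 2-fold in any comparison. Hsp90ab1, the constitutive HSP90, was saturated. Hspa4, an HSP110 relative of Hsph1, had -0.56 over EGFP and 0.36 over Oct4-EGFP at its brightest probe, against 1.04 and 1.54 for Hsph1. Its 2 other probes ran from -1.64 to -0.39 over EGFP and from -0.22 to 0.03 over Oct4-EGFP, so its sign over Oct4-EGFP depends on the probe. Hspa5, the HSP70 of the endoplasmic reticulum (ER), had 0.05 and 0.27, and the mitochondrial HSP70 gene Hspa9 was saturated.

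Of the genes on the 10 lists of other chaperones, co-chaperones and heat shock factors, 102 were measured over EGFP. Of these 1 was at least 2-fold higher and 5 lower, against 3.33% and 5.08% of all genes, with a median of -0.05. Over Oct4-EGFP the counts were 4 and 4 of 103, against 4.54% and 7.12% of all genes, with a median of 0.04. Over EGFP the higher gene was Hspb9 (1.13), and the lower ones were Hspb2 (-1.62), Hspa12a (-1.54), Sil1 (-1.07), Aarsd1 (-1.05) and Cryab (-1.04), a small heat shock protein gene of lens and muscle. Over Oct4-EGFP the higher ones were Hspb11 (1.65), Cct6b (1.36), Hspa13 (1.26, and 0.37 at its other probe) and Hspa12a (1.03), and the lower ones Dnajc6 (-2.83), Hspb2 (-1.62), Pfdn2 (-1.22) and Sil1 (-1.11). Dnajc6 was not well above background in every channel.

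The 8 other HSP70 and HSP110 genes had a median of 0.40 over Oct4-EGFP, with all 8 above 0, and -0.08 over EGFP, with 4 of 8 above 0. The TRiC chaperonin, which folds actin and tubulin, had medians of 0.08 and -0.11 over 9 genes, and the 13 other mitochondrial chaperones and proteases -0.29 and 0.02. The prefoldin genes, whose product hands clients to TRiC, had a median of -0.75 over Oct4-EGFP, the lowest of these lists, with Pfdn2 as the member past 2-fold. The 15 ER chaperones had medians of 0.21 and -0.10. The inducible class of the members, which includes the saturated Hsp90aa1 spot, had a larger median than each of these lists on both arrays. The members and classes were chosen with earlier results of these data known, so this is a description of values and not a test.

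**Figure D5:**
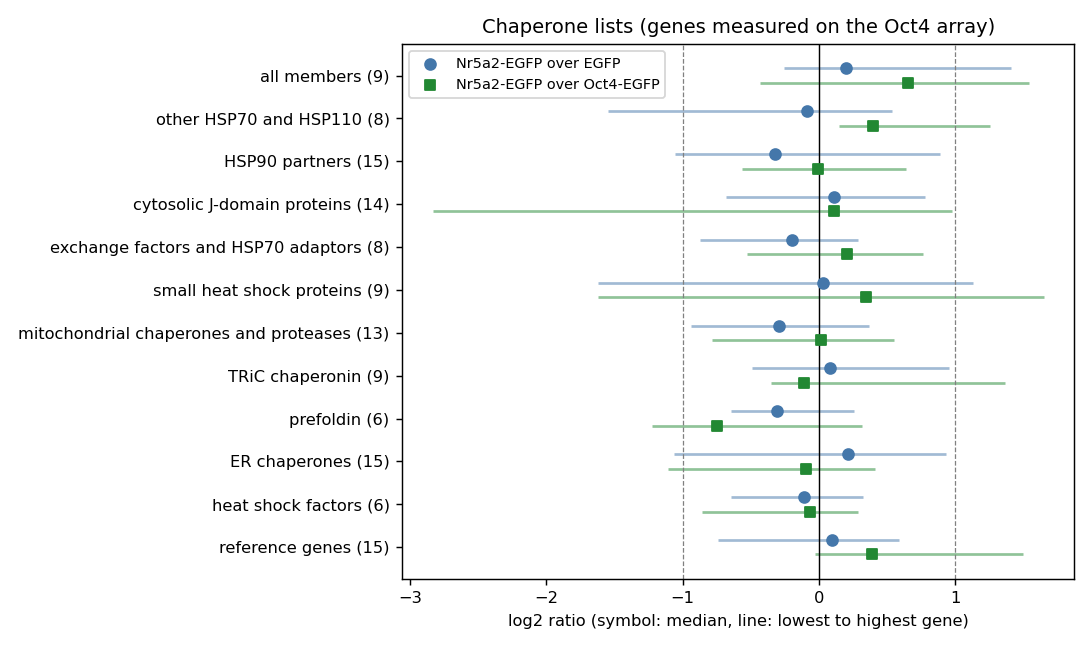
Median (symbol) and full range (line) of the log2 ratio for the members, 10 lists of other chaperones, co-chaperones and heat shock factors, and the reference genes, over EGFP (circles) and over Oct4-EGFP (squares), with the number of genes measured on the Oct4 array in brackets. The members' medians of 0.20 and 0.66 stand beside 0.09 and 0.39 for the reference genes.

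Hsph1 was also set against all genes by pattern, as the member with the largest ratio over Oct4-EGFP among spots not flagged as saturated. Among 14712 genes well above background and unsaturated in all channels, the nearest by Euclidean distance over 3 values, both log2 ratios and the difference of the Nr5a2-EGFP readings, were Tlr4 (distance 0.06), Camk2n2 (0.07), Pspn (0.08), Gigyf2 (0.08) and Rexo2 (0.09). No other chaperone or co-chaperone gene was among these 5. With 3 clones, such likeness describes these arrays only.

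The summed processed signal of the 12 trophoblast markers came to 145925 for EGFP, 22766 for Oct4-EGFP, and 124575 and 100373 for the Nr5a2-EGFP readings. That of the 12 ES markers was 211459, 342571, 118509 and 101938 in the same order, with 3 of these genes saturated in some channel, that of 7 primitive endoderm markers 3568, 1947, 3692 and 3327, and that of 6 fibroblast markers 9806, 13680, 8599 and 8087. Like the trophoblast sum, Hsph1, Dnajb1, Hspb1 and Hspd1 read lower in the Oct4-EGFP clone than in all other channels, whereas Bag3 and Hspa1a did not follow that order. Hspa8 and Hspe1 followed it at some probes only, and Hsp90aa1 was saturated. The reference genes Actb and B2m also read lowest in the Oct4-EGFP clone, and Gapdh did not. Of 6 measured primitive endoderm markers 1 (Dab2, higher) was past 2-fold over Oct4-EGFP, of 6 fibroblast markers 1 (Pdgfrb, lower), and over EGFP 0 of either list. The part of cell type in the members' ratios was not tested, and fewer cells of a type and less RNA per cell cannot be told apart in such bulk samples.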

How the data were processed

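The authors deposited spot intensity values that Agilent's Feature Extraction software wrote; its version is 10.7.3.1 by the headers and 9.3.2.1 per the submitters' processing notes. The log10 ratio of Cy5 over Cy3, its error (a score of the software's error model) and flags and pixel numbers per spot come from the same deposited files. The value table that the authors deposited holds log2 ratios that followed the software's ratio at r = 0.997 on both arrays and whose scale and centring stay unknown. Per the labels, 10 µg of total RNA per channel was labelled by reverse transcription.

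Mean spot signals were corrected with normexp (offset 50) and normalized by loess in limma 3.58.1 (R 4.3.3), where control and outlier spots had no weight. Single channels were scaled by Aquantile. The probe of highest mean level stood for a gene, and genes well above background in neither channel of a comparison were left out of it. Members were matched by the files' own symbols; other symbols were updated by RefSeq accession where it matched (66.1% of probes). Saturated spots were kept. The probes of Pou5f1 and Nr5a2 were read to check the labels. Steps were tested on simulated arrays. The number of arrays limits the precision.

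Members, lists and classes were chosen with earlier results of these data known. All member probes are reported. Of each other list, the named genes were to be the highest and lowest well above background and unsaturated, with Hsf1, Hsf2, Hsp90ab1, Hspa9, Hspa5 and Hspa4 whatever their values; other genes past 2-fold were named after their values were seen. Direct ratios are open to dye bias.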

Additional observations from a re-analysis of the deposited data

How the results depend on the processing

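Over EGFP, the number of members at least 2-fold higher was 2, and 1 (Bag3) with the software's processed signals and no loess, 1 with a gene's probes averaged, and 1 with the dimmest probe, an alternative chosen after seeing the data. Over Oct4-EGFP it was 2, and 1 with the dimmest probe. The other counts of higher and lower members stayed the same under every alternative run. The members' median kept its sign in all of them and moved by less than the SD of the Nr5a2-EGFP readings. Hspa8 over Oct4-EGFP ran from -0.39 with the dimmest probe to 0.77 with the brightest unsaturated one and 0.84 under median centring. Over EGFP, median centring in place of loess moved the median of all genes from 0.03 to 0.16, gave 1546 genes higher and 899 lower (63.2% higher) in place of 867 and 1321 (39.6%), and left Hspe1 at 0.01. The processed signals gave 1784 and 2134 genes over EGFP and 1963 and 2609 over Oct4-EGFP, in place of 1187 and 1861, and 2599 and 2481 in the indirect comparison, in place of 1710 and 1546. The authors' deposited value table gave 1785 and 2123, 2049 and 2543, and 2450 and 2512. No paired analysis was possible because no clone has replicate samples: EGFP and Oct4-EGFP were each set against Nr5a2-EGFP on 1 array and never against each other. No replicate could be left out for the same reason. Signal was not the limit for dim members, since all 14 probes were well above background, but saturation was for Hsp90aa1, Hspa8 and Hsph1.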
